A study of Sus scrofa with 6 samples.

Results

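The genes described here are those whose row in the deposited tables carries the pathway entry Glycolysis / Gluconeogenesis, and they number 48 of 19465 genes listed. A gene was described in a tissue when its mean normalised read count over both libraries of that tissue was at least 10, which held for 42 of them in the ovary, 40 in the pituitary and 41 in the hypothalamus, and for 40 in all 3 tissues. In the ovary HKDC1 and PGAM2 lay nearest above the floor and LDHC nearest below it. GAPDHS, PCK1, ADH4, ADH7, LDHC and G6PC2 stayed under that floor in every tissue. GAPDH itself, the glyceraldehyde-3-phosphate dehydrogenase, carries no pathway entry in the tables and is no member, and no gene named ALDOA or PKLR was found in the tables. All 48 members have a symbol in the deposited tables, and 1 of them, PGM1, is named differently in the gene name table used here, so its identity is uncertain. Enzyme roles are given as known from mammals in general.

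Glycolysis splits glucose into pyruvate with a net yield of ATP, and gluconeogenesis runs most of the same steps in reverse through a few enzymes of its own. Hexokinases trap glucose in the cell, phosphofructokinases commit it to breakdown, and lactate dehydrogenases or the pyruvate dehydrogenase complex decide whether pyruvate leaves as lactate or enters mitochondria. In the ovary, granulosa and cumulus cells are known to break glucose down to pyruvate and lactate, which the oocyte takes up, and neurons and glia of the brain divide these steps between them.

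RNA came from ovary, pituitary and hypothalamus of anestrous sows, whose anestrus the labels put down to inactive ovaries, and of sows in normal estrus. All were primiparous Landrace x Large White animals, that is, after their first litter, and no treatment is given in the labels. The protocol gives 3 sows per state but does not say whether their RNA was pooled, and each tissue and state is 1 library, 6 in all. Library totals ran from 15314325 to 17384789 reads, and the 10 genes with most reads took 11.5% and 8.55% of them in the ovary (anestrous and estrous), 35.9% and 33.3% in the pituitary, and 21.9% and 20.3% of hypothalamus reads. Marker genes were found in the tissues: INHA in the anestrous and estrous ovary (14495 and 86346 reads), PRL in the pituitary (2682174 and 2136505 reads) and the neuron marker SNAP25 in the hypothalamus (25700 and 18182 reads). SNAP25 is not particular to the hypothalamus, with 6309 and 7307 reads in the anestrous and estrous pituitary.

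With 1 library per tissue and state the states cannot be tested within a tissue, and no difference below has a replicate check. A fold is the ratio of the anestrous to the estrous normalised read count, with an exact 95% binomial interval from the reads that covers counting error only. The log2 fold adds a pseudocount of 1 to both counts, and a gene is called at least 2-fold higher or lower when that log2 fold is at least 1 in size. In such bulk tissue, fewer cells of a type and less RNA per cell cannot be told apart.

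In the ovary, hexokinases, lactate dehydrogenase A and several enzymes of the main glycolytic chain had higher counts in the anestrous library, while FBP2, ENO3 and HKDC1 had lower ones. Of 42 genes over the floor, 10 were at least 2-fold higher, against a background of 13.6% of all 13193 ovary genes, so that 23.8% of the pathway genes passed. The 10 were HK2, HK3, LDHA, ACSS1, PKM, PGK1, HK1, PCK2, GPI and PFKL. The 3 genes at least 2-fold lower were FBP2, ENO3 and HKDC1, a share of 7.14% against a background of 10.7%. The median log2 fold of the pathway genes was 0.15, against 0.01 for all ovary genes, and 25 of the 42 lay above 0 (background 50.4%). With library totals made equal, which moves every ovary log2 fold by -0.20, 7 were 2-fold higher and 4 lower (10.5% and 14.3% of all ovary genes), so that calls were 63.6% higher in place of 76.9%, and the median was -0.05 against -0.20 for all ovary genes. GPI, PCK2 and PFKL were the 3 that no longer passed, and ALDH3A1 was the added lower gene.

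**Figure D1:**
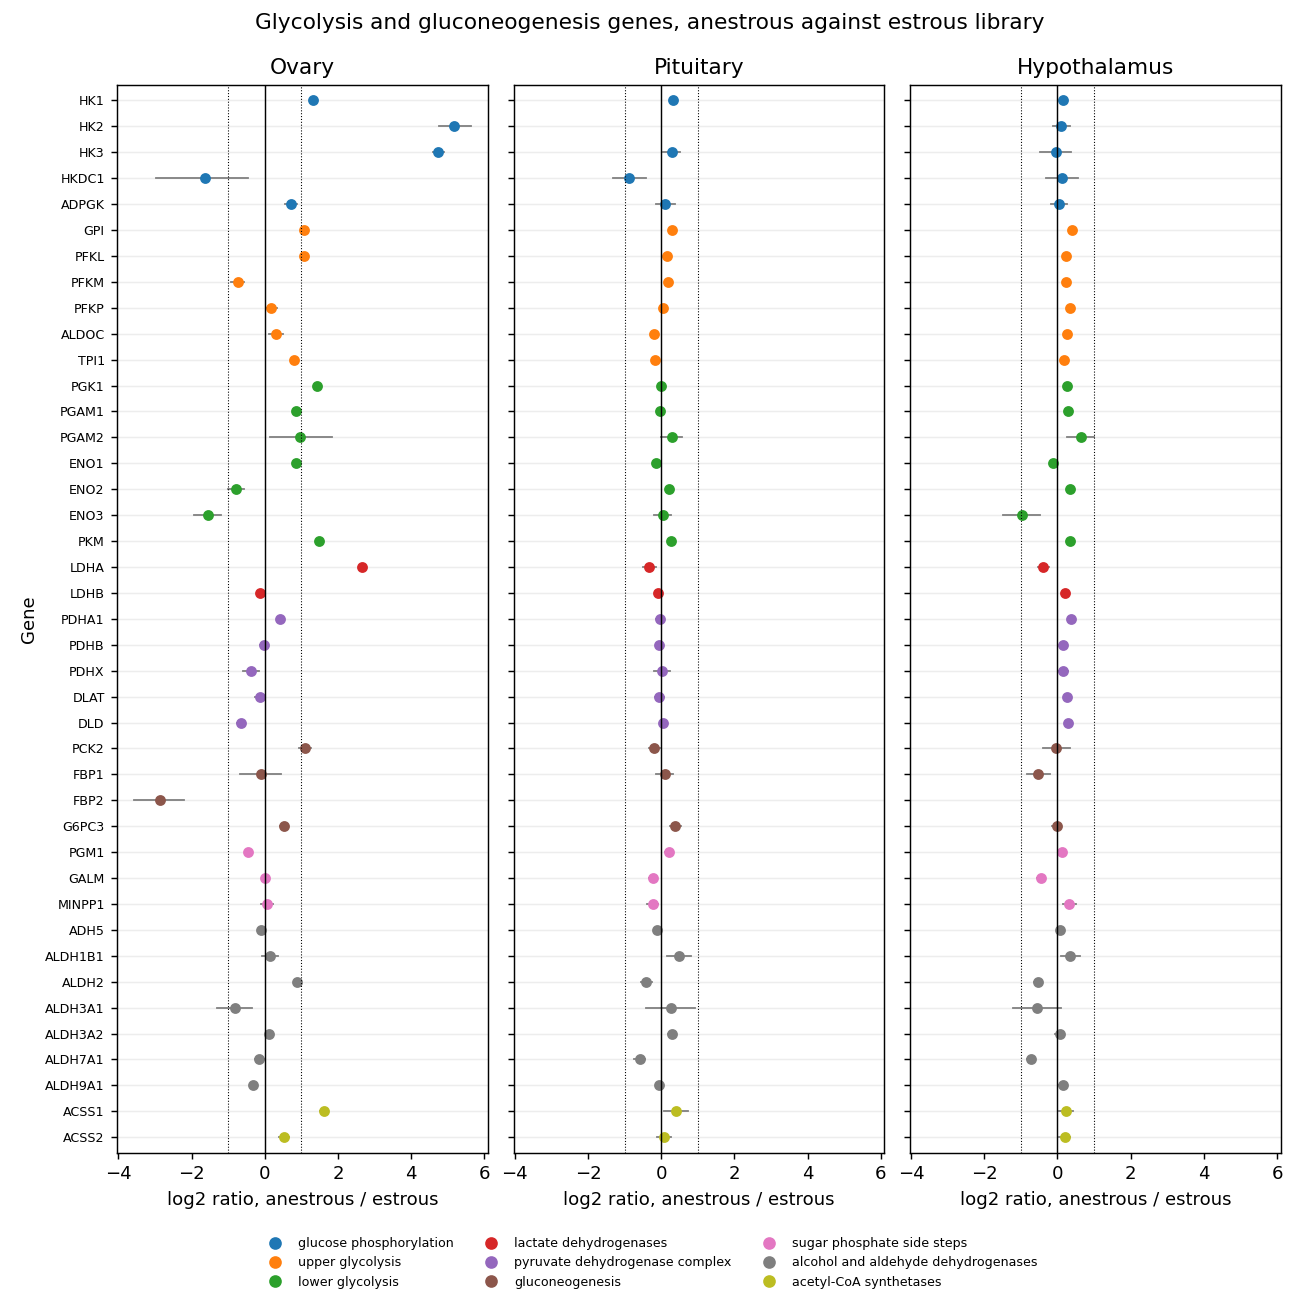
Each point is the log2 ratio of the anestrous to the estrous normalised read count (x axis, no pseudocount) of a pathway gene (y axis) with a mean of at least 10 in the tissue named above the panel, and grey lines are 95% counting intervals. Dotted lines mark a 2-fold difference. In the ovary 13 genes lie beyond the 2-fold rule, with HK2 and HK3 farthest to the right, and in the pituitary and hypothalamus none does.

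Hexokinases carry out the first step, the phosphorylation of glucose. HK2, the inducible hexokinase of muscle and fat, gave 1537 reads in the anestrous ovary and 46 in the estrous ovary, 36.2-fold higher (95% interval 27.0 to 49.7). HK3, a hexokinase known mainly from leukocytes, gave 9049 and 368 reads, 26.6-fold higher (24.0 to 29.7). These were the largest ratios among the pathway genes over the floor in the 3 tissues. HK1, the hexokinase found in most tissues, gave 6647 reads in anestrus and 2912 in estrus, 2.47-fold higher (2.37 to 2.58). HKDC1, a hexokinase-like gene that neighbours HK1 in the pig assembly Sscrofa11.1, ran against HK1 with 8 and 27 reads, 3.11-fold lower (1.38 to 7.93). ADPGK, which phosphorylates glucose with ADP, was 1.63-fold higher (1.46 to 1.82), within 2-fold.

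The makeup of the reads of the 4 genes HK1, HK2, HK3 and HKDC1 differed accordingly between the ovary libraries. Shares are given with exact 95% binomial intervals. HK3 held 52.5% (51.7 to 53.2) of these hexokinase reads in the anestrous ovary and 11.0% (9.94 to 12.1) in the estrous ovary. HK1 held 38.6% (37.8 to 39.3) in anestrus and 86.8% (85.7 to 88.0) in estrus, although its own count was higher in anestrus. HK2 held 8.91% (8.49 to 9.35) and 1.37% (1.01 to 1.83). These are shares of reads and not of transcripts, since gene lengths were not taken into account, so they are set against each other only for the same gene between libraries. In the pituitary HKDC1 held 1.38% (1.06 to 1.75) in anestrus and 3.09% (2.58 to 3.67) in estrus. HK3 made up 6.92% and 6.98% of these reads in the anestrous and estrous pituitary, and 1.45% and 1.66% in the hypothalamus.

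Lactate dehydrogenase is built from A subunits, which are known to favour lactate formation from pyruvate, and B subunits, which are known to favour the reverse. LDHA gave 14520 reads in the anestrous ovary and 2494 in the estrous ovary, 6.31-fold higher (6.05 to 6.59). LDHB gave 6919 and 8246 reads, 1.10-fold lower (1.07 to 1.14). The A form therefore took 67.7% (67.1 to 68.3) of lactate dehydrogenase reads in anestrus and 23.2% (22.4 to 24.0) in estrus. LDHC, the form known from testis, had 5 and 7 reads in the anestrous and estrous ovary, under the floor. It neighbours LDHA in the assembly without overlap.

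**Figure D2:**
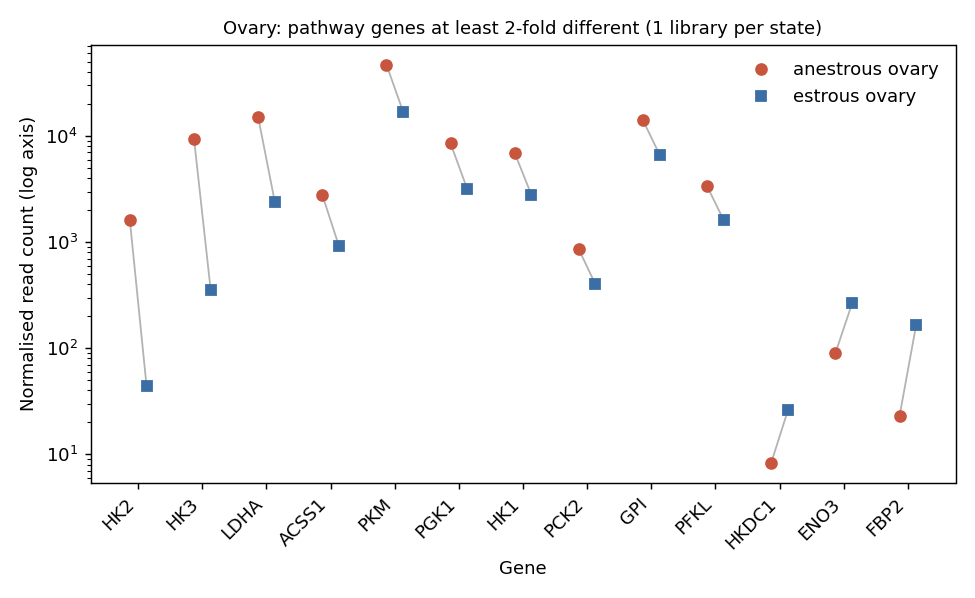
Normalised read counts (log axis) of the 13 pathway genes at least 2-fold different between the ovary libraries, ordered by log2 fold, with circles for the anestrous ovary on the left of squares for the estrous ovary. Each symbol is 1 library, and the 10 genes from HK2 to PFKL have the higher circle while HKDC1, ENO3 and FBP2 have the higher square.

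Along the chain from glucose 6-phosphate to pyruvate, most of the enzyme genes had higher counts in the anestrous ovary. GPI, the glucose 6-phosphate isomerase, gave 13531 and 6940 reads in the anestrous and estrous ovary, 2.11-fold higher (2.05 to 2.18). PGK1, the phosphoglycerate kinase of an ATP-yielding step, gave 8191 and 3301 reads, 2.69-fold higher (2.58 to 2.80). PKM, the pyruvate kinase that closes the chain, gave 45326 and 17686 reads, 2.78-fold higher (2.73 to 2.83). Below the 2-fold rule but on the same side were ENO1, an enolase found in most tissues (1.81-fold, 28892 and 17315 reads), the mutase gene PGAM1 (1.81-fold, 6378 and 3825 reads) and TPI1, the triosephosphate isomerase (1.74-fold, 11473 and 7128 reads). Several of these genes are known to have processed copies in mammalian genomes, LDHA and LDHB too, and how such copies were counted is not given in the sources used here. PFKL was the called gene nearest the rule at a log2 fold of 1.07, and the muscle mutase PGAM2 the nearest outside it at 0.93, with 36 reads in the anestrous and 20 in the estrous ovary. GAPDH, chosen after its values were seen because it carries no pathway entry, gave 18955 and 12589 reads in the anestrous and estrous ovary, 1.63-fold higher (1.60 to 1.67).

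Paralogs of 1 enzyme had ratios on both sides of 1. Among the phosphofructokinases, the liver-type PFKL gave 3235 and 1672 reads in the anestrous and estrous ovary, 2.10-fold higher (1.98 to 2.23). The muscle-type PFKM gave 385 and 699 reads, 1.68-fold lower (1.48 to 1.90), and the platelet-type PFKP was 1.13-fold higher (1.02 to 1.25), a direction that turned with library totals made equal. PFKL thus held 73.9% (72.6 to 75.2) of phosphofructokinase reads in anestrus and 54.0% (52.2 to 55.8) in estrus. Among the enolases, ENO2, the neuron-type form, gave 258 and 480 reads, 1.72-fold lower (1.47 to 2.01). ENO3, the muscle form, gave 86 and 275 reads, 2.95-fold lower (2.31 to 3.80), whereas ENO1 was higher as given above. ALDOC, the brain-type aldolase, gave 523 reads in anestrus and 457 in estrus, 1.24-fold higher (1.09 to 1.41). The skeletal muscle markers found, ACTA1, MYH1 and MYH2, summed to 3.12 normalised counts in anestrus and 24.0 in estrus, with MYH1 at 0 in estrus, and their part in the muscle-type forms was not tested.

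**Figure D3:**
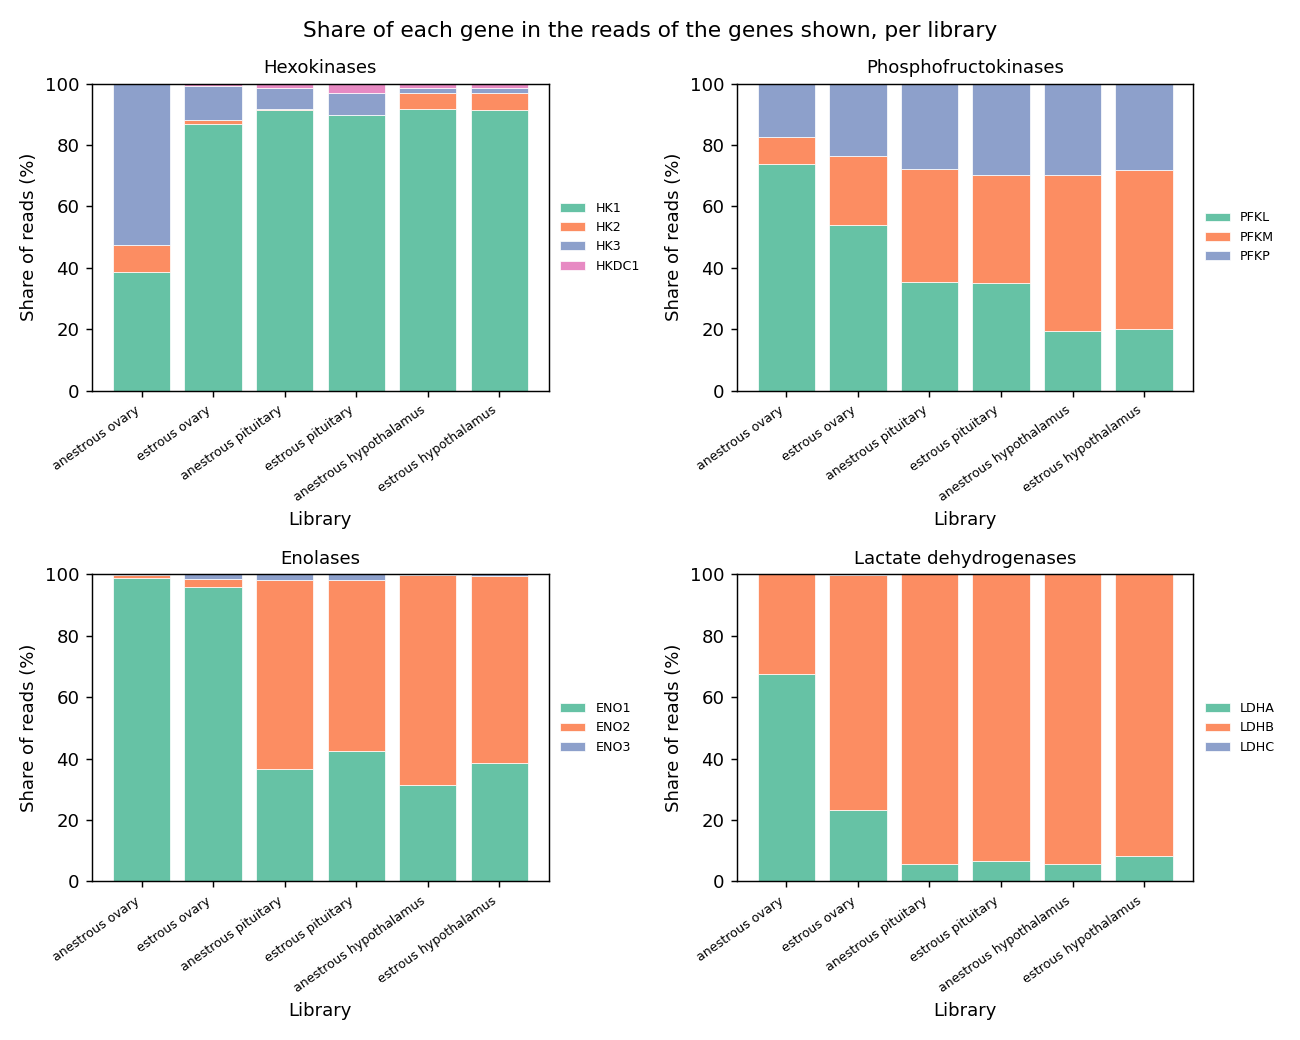
Stacked bars give the percent of reads (y axis, from 0 to 100) that each gene takes of the reads of the genes shown for its enzyme family in each of the 6 libraries (x axis), for hexokinases, phosphofructokinases, enolases and lactate dehydrogenases. HK3 and LDHA take 52.5% and 67.7% in the anestrous ovary, against 11.0% and 23.2% in the estrous ovary.

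The genes of the pyruvate dehydrogenase complex, which turns pyruvate into acetyl-CoA in mitochondria, had ratios on both sides of 1 in the ovary. None of the 5 was 2-fold different, where 13.6% of all ovary genes were higher and 10.7% lower. Log2 folds were below 0 for 4 of them, and the median was -0.14, against 0.01 for all ovary genes. PDHA1, the E1 alpha subunit, was 1.32-fold higher (1.25 to 1.40) and PDHB, the E1 beta subunit, was 1.01-fold lower (0.940 to 1.09). DLD, the lipoamide dehydrogenase subunit shared with other complexes, gave 1149 and 1961 reads in the anestrous and estrous ovary and was 1.57-fold lower (1.46 to 1.70). DLAT, the E2 subunit, and PDHX, which binds E3, had log2 folds of -0.14 and -0.37.

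Genes particular to gluconeogenesis were few over the floor and mixed. PCK2, the mitochondrial phosphoenolpyruvate carboxykinase, gave 821 reads in the anestrous ovary and 415 in the estrous one, 2.14-fold higher (1.90 to 2.42). PCK1, its cytosolic partner and a marker of gluconeogenic liver and kidney, had 2 and 0 reads. FBP2, the muscle fructose-bisphosphatase, gave 22 and 173 reads in the anestrous and estrous ovary, 7.26-fold lower (4.64 to 11.9). FBP1, the liver form, had 52 and 61 reads and an interval that includes equal levels. FBP1 and FBP2 neighbour each other in the assembly without overlap. G6PC3, a glucose 6-phosphatase found in most tissues, was 1.43-fold higher (1.33 to 1.54), and G6PC2 was listed at 0 in every library.

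Of the 9 alcohol and aldehyde dehydrogenase genes in the entry 7 were over the floor in the ovary, and none was 2-fold different. ALDH2, the mitochondrial enzyme that clears acetaldehyde, gave 9393 and 5558 reads in the anestrous and estrous ovary, 1.83-fold higher (1.77 to 1.89). ALDH3A1 lay at the other end with 58 and 111 reads, 1.77-fold lower (1.27 to 2.47). ACSS1, which makes acetyl-CoA from acetate in mitochondria, gave 2683 and 956 reads, 3.04-fold higher (2.82 to 3.28), while the cytosolic ACSS2 was 1.43-fold higher (1.30 to 1.57). The other alcohol and aldehyde dehydrogenases, ADH5, ALDH1B1, ALDH3A2, ALDH7A1 and ALDH9A1, had log2 folds of -0.11, 0.13, 0.12, -0.16 and -0.32, and those of ALDH1B1 and ALDH3A2 turned below 0 with library totals made equal. The side steps of the entry, GALM, MINPP1 and PGM1, had log2 folds of 0.003, 0.05 and -0.45, and those of GALM and MINPP1 turned below 0 with library totals made equal.

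All pathway genes together took 1.18% (1.18 to 1.19) of the reads in the anestrous ovary and 0.697% (0.693 to 0.701) in the estrous ovary. In the pituitary the share was 0.559% (0.556 to 0.563) in anestrus and 0.576% (0.572 to 0.580) in estrus, and in the hypothalamus 1.13% (1.13 to 1.14) and 1.04% (1.03 to 1.04). The share was thus higher in the anestrous library in the ovary and hypothalamus and lower in the pituitary. In the authors' deposited table, 2 pathway genes of the ovary had an adjusted p of at most 0.05, HK2 (7.09e-06) and HK3 (0.000706), against a background of 0.676% of 15972 ovary genes. LDHA, FBP2 and ACSS1 had adjusted p-values of 0.37, 0.446 and 0.731 in the authors' deposited table and so did not pass. In the pituitary and hypothalamus 0 pathway genes passed in the authors' deposited tables (background 0.635% and 0.739%), and those p-values compare 2 libraries and not the states.

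Genes around the pathway were read from 8 lists of 57 genes, 44 of which were over the floor in the ovary. Of these 8 were at least 2-fold higher and 1 lower, with a median log2 fold of 0.26, beside the same background of 13.6% and 10.7%. With library totals made equal 6 were higher, without PDK1 and PDPR, and 3 lower, with EPAS1 and GPT added to GPT2, at a median of 0.06. PFKFB3, which makes the phosphofructokinase activator fructose 2,6-bisphosphate, gave 736 reads in the anestrous ovary and 176 in the estrous one, 4.53-fold higher (3.84 to 5.37). PFKFB2, of the same family, was 2.33-fold higher (1.67 to 3.28), and PFKFB4 was at a ratio of 0.786 (0.660 to 0.935). SLC16A3, a carrier that exports lactate, gave 1060 and 430 reads, 2.67-fold higher (2.39 to 3.00). All 4 lactate and pyruvate carriers over the floor lay above 0, as did 50.4% of all ovary genes. Of the 7 genes on that list BSG and MPC1 were not found by name, and SLC16A8 was under the floor. The glucose transporters over the floor, SLC2A8, SLC2A10 and SLC2A12, were within 2-fold at log2 folds of 0.42, -0.01 and 0.23, and no row is named SLC2A1 or SLC2A3.

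Regulators of pyruvate entry into mitochondria were mixed in the ovary. PDK1, a kinase that inhibits pyruvate dehydrogenase, gave 228 and 114 reads in the anestrous and estrous ovary, 2.17-fold higher (1.72 to 2.74). PDPR, a regulatory subunit of the opposing phosphatase, was 2.32-fold higher (1.47 to 3.74). PDK4, another of these kinases, gave 2738 and 4644 reads, at a ratio of 0.639 (0.609 to 0.670). Among hypoxia response factors, EGLN3, a prolyl hydroxylase of hypoxia-inducible factors, gave 2569 and 707 reads, 3.94-fold higher (3.62 to 4.29). HIF1A, the factor's alpha subunit, gave 2745 and 3031 reads with a log2 fold of -0.03, and its relative EPAS1 was at a ratio of 0.554 (0.531 to 0.577). TKT, the transketolase of the pentose phosphate pathway, gave 13669 and 5154 reads, 2.87-fold higher (2.78 to 2.97). The 8 citrate cycle genes, which burn the acetyl-CoA made from pyruvate, were all within 2-fold, with a median log2 fold of 0.01. CREB3L3, a transcription factor known from liver gluconeogenesis, gave 161 and 31 reads, 5.63-fold higher (3.81 to 8.56), and GPT2, the mitochondrial alanine aminotransferase, was at a ratio of 0.390 (0.329 to 0.460).

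Markers of several cell types also differed between the ovary libraries, where 13.6% of all genes were at least 2-fold higher and 10.7% lower. Of the 10 macrophage markers over the floor 6 were at least 2-fold higher and none lower, and all 11 listed summed to a normalised count of 30890 in anestrus and 17800 in estrus. CSF1R gave 2439 and 176 reads in the anestrous and estrous ovary, but C1QA gave 4130 and 5114, and CD163, under the floor, gave 1 and 11. All 3 neutrophil markers over the floor, S100A8, S100A9 and S100A12, were higher, S100A12 with 3401 and 10 reads. The 4 listed genes found summed to 5239 in anestrus and 22.1 in estrus, with MMP8 at 0 in both libraries. CSF3R and CXCR2, also on this list, were not found by name, so the neutrophil label rests on the 3 S100A genes. Granulosa markers were at least 2-fold lower in 6 of 8, and the 8 summed to 38404 in anestrus and 185276 in estrus. Theca and luteal markers were 2-fold lower in 4 of 5 (sums of 59837 and 128296), with HSD3B1 at least 2-fold higher, and oocyte markers over the floor in 4 of 5 (all 8 summing, with NLRP5 at 0 in anestrus and DAZL at 0 in estrus, to 899 and 2549). The 2 red blood cell markers over the floor were both 2-fold lower. Of 4 smooth muscle markers 1 was 2-fold lower, DES (1451 and 7922 reads in the anestrous and estrous ovary). The 4 summed to 77284 in anestrus and 91706 in estrus. Of 3 neuron markers over the floor 2 were at least 2-fold higher, SNAP25 and STMN2. The 5 neuron markers found summed to 227 in anestrus and 66.3 in estrus, with SLC17A6 at 0 in anestrus. The T and B cell markers had 2 of 8 higher and 2 lower, the 5 endothelial markers found were within 2-fold, and 1 of 4 fibroblast markers was higher. These counts rest on few genes per list, and their difference from the shares over all ovary genes was not tested. The part of these cell types in the counts of HK2, HK3, LDHA and the other pathway genes was not tested.

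**Figure D4:**
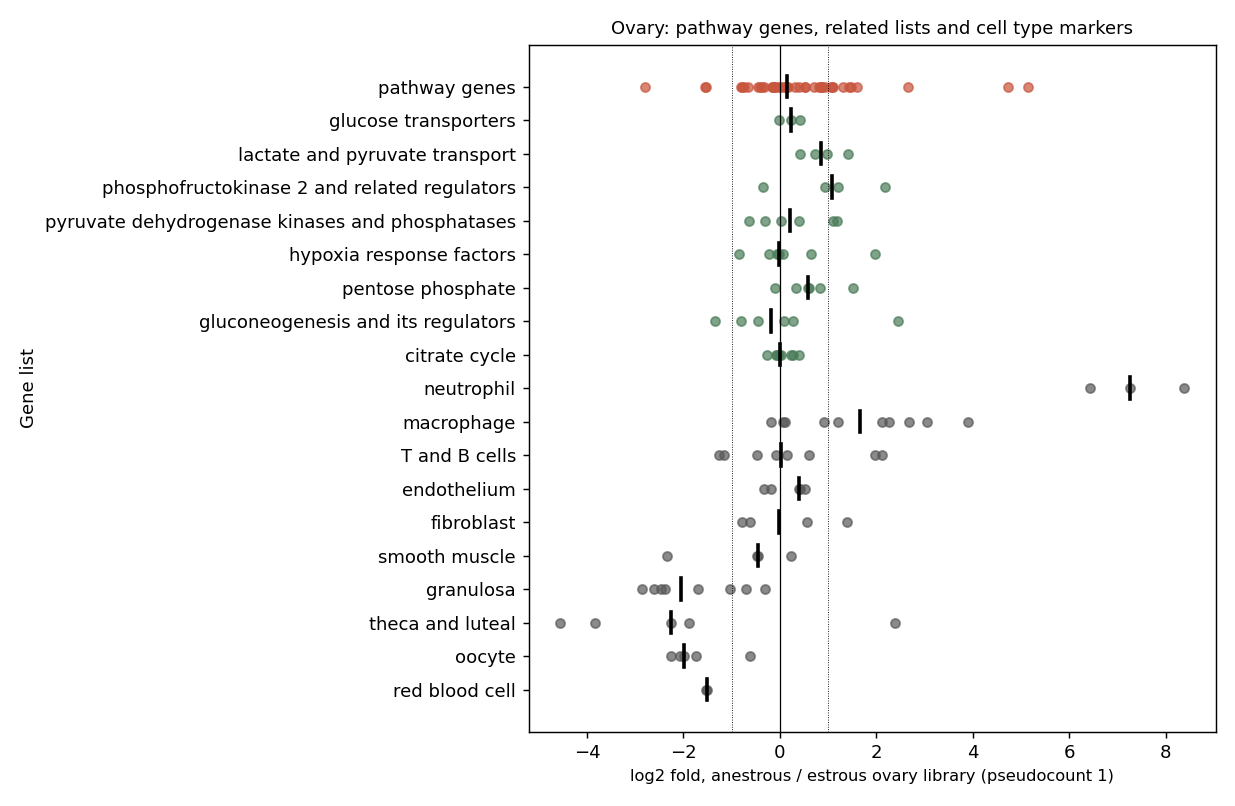
Log2 folds (x axis, anestrous over estrous ovary, pseudocount 1) of the pathway genes (top row), of related gene lists and of cell type markers (y axis), with a point for each gene with a mean of at least 10, a black bar at the median and dotted lines at 2-fold. Neutrophil markers (S100A8, S100A9 and S100A12 only) and macrophage markers lie to the right, with medians of 7.26 and 1.66, and granulosa markers to the left at -2.04.

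In the pituitary, 0 of 40 pathway genes were at least 2-fold higher (background 2.27%) and 0 were lower (background 4.23%). Their log2 folds ran from -0.86 to 0.48 with a median of 0.04, against -0.0025 for all pituitary genes, and 22 lay above 0 (background 49.7%). That median was -0.07 with library totals made equal, where all pituitary genes had a median of -0.12. HKDC1 had the lowest value, with 64 reads in the anestrous and 124 in the estrous pituitary, 1.83-fold lower (1.34 to 2.51). ALDH7A1, an aldehyde dehydrogenase of lysine breakdown, followed with 518 and 826 reads, 1.50-fold lower (1.35 to 1.68). LDHA gave 470 reads in anestrus and 623 in estrus, 1.25-fold lower (1.11 to 1.41), so that its ratio lay on the other side of 1 from the ovary. ALDH2 gave 660 and 927 reads, 1.33-fold lower (1.20 to 1.47).

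The highest log2 folds of the pituitary were small. ALDH1B1, a mitochondrial aldehyde dehydrogenase, gave 181 and 137 reads in the anestrous and estrous pituitary, 1.40-fold higher (1.12 to 1.76). ACSS1 gave 178 and 142 reads, 1.33-fold higher (1.06 to 1.67), and G6PC3 gave 847 and 688 reads, 1.30-fold higher (1.18 to 1.44). The muscle mutase PGAM2 gave 227 and 197 reads, 1.22-fold higher (1.00 to 1.49), an interval that starts next to equal levels.

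Along the main chain the pituitary libraries were close. HK1 gave 4256 and 3604 reads in the anestrous and estrous pituitary, 1.25-fold higher (1.20 to 1.31), and GPI gave 6153 and 5338 reads, 1.22-fold higher (1.18 to 1.27). PFKM and PFKL, at 1.15-fold and 1.11-fold, had ratios just above 1. ALDOC and TPI1 were below, with 1833 and 2215 reads, 1.14-fold lower (1.07 to 1.21), and 6064 and 7260 reads, 1.13-fold lower (1.09 to 1.17). PGK1 and PGAM1 were within counting error of equal levels at ratios of 0.988 and 0.986. At the end of the chain, PKM gave 17350 and 15180 reads, 1.21-fold higher (1.19 to 1.24), ENO2 was 1.16-fold higher (1.13 to 1.19) and ENO1 1.09-fold lower (1.06 to 1.13). The pyruvate dehydrogenase genes lay between log2 folds of -0.05 and 0.05. Of 6 hormone genes measured as pituitary markers, FSHB was at least 2-fold higher (log2 fold 2.02) and POMC at least 2-fold lower (-1.21). Of markers of other cell types CSF1R, S100A9 and CNN1 were at least 2-fold higher and AMHR2, CD2, CD4, CD8A and GAD1 at least 2-fold lower. Over all cell type lists this made 4 of 58 pituitary markers higher and 6 lower, beside 2.27% and 4.23% of all pituitary genes. The markers' part in the ratios of the pathway genes was not tested.

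HK2 gave 11 reads in the anestrous and 5 in the estrous pituitary, just under the floor. In the gene lists around the pathway, 1 pituitary gene was 2-fold higher, GPT2 (1.16), and 2 were lower, FOXO1 (-1.28) and SLC16A7 (-1.09), of 43 over the floor, shares near the background of 2.27% and 4.23%. With library totals made equal 5 were lower, with PDK4, EGLN3 and SLC2A10 added, where 5.33% of all pituitary genes were.

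In the hypothalamus, more of the pathway genes had higher than lower counts in the anestrous library, none of them by as much as 2-fold. Of 41 genes 0 were at least 2-fold higher (background 1.99%) and 0 lower (background 2.61%), and 30 had log2 folds above 0 (background 49.8%). The median log2 fold was 0.16, against -0.0016 for all hypothalamus genes. With library totals made equal the medians were 0.07 and -0.09, and 27 of the 41 lay above 0 against 37.2% of all hypothalamus genes. All 6 upper glycolysis genes and all 5 pyruvate dehydrogenase genes lay above 0, with medians of 0.25 and 0.27.

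**Figure D5:**
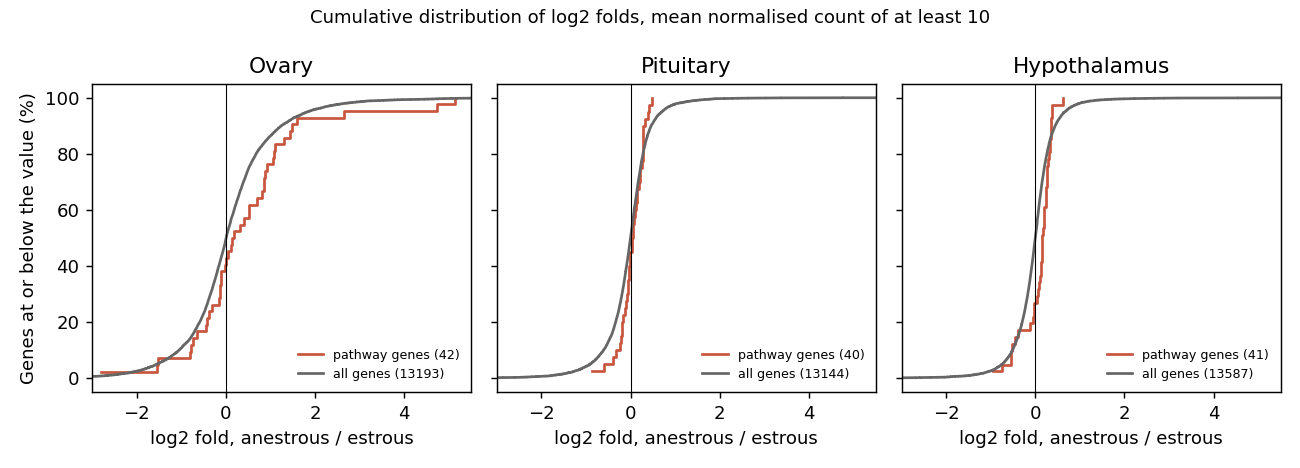
Lines give the percent of genes (y axis) at or below a log2 fold (x axis, anestrous over estrous) for the pathway genes and for all genes with a mean normalised count of at least 10, in each tissue. The pathway line lies to the right of the line of all genes over the upper part of the ovary panel and through the middle of the hypothalamus panel, and the pathway medians are 0.15 in ovary, 0.04 in pituitary and 0.16 in hypothalamus.

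HK1 gave 5823 and 5387 reads in the anestrous and estrous hypothalamus, 1.12-fold higher (1.07 to 1.16), and HK2 gave 334 and 320 reads, 1.08-fold higher (0.921 to 1.26), an interval that includes equal levels. The next enzymes of the chain had somewhat larger ratios. GPI gave 10910 and 8628 reads in the anestrous and estrous hypothalamus, 1.31-fold higher (1.27 to 1.34). PFKM gave 4703 and 4110 reads, 1.18-fold higher (1.13 to 1.23), and PFKP gave 2742 and 2221 reads, 1.27-fold higher (1.20 to 1.35). ALDOC, an aldolase known from astrocytes and some neurons, gave 34844 and 29894 reads, 1.20-fold higher (1.18 to 1.22). PFKL gave 1807 and 1582 reads, 1.18-fold higher (1.10 to 1.26). PFKL, PFKM, PFKP and ALDOC thus lay on the same side as GPI. TPI1 gave 11202 and 10274 reads, 1.13-fold higher (1.10 to 1.16), PGK1 was 1.19-fold higher (1.15 to 1.23) and PGAM1 1.22-fold higher (1.19 to 1.26). PKM gave 26075 and 21235 reads, 1.27-fold higher (1.24 to 1.29). These are small ratios on many reads, so the counting intervals from GPI to PKM leave out equal levels, which says nothing of the spread between animals. The enolases had ratios on both sides of 1. ENO2, the neuron-type form, gave 17203 and 14058 reads in the anestrous and estrous hypothalamus, 1.26-fold higher (1.24 to 1.29), whereas ENO1 gave 7857 and 8848 reads, 1.09-fold lower (1.06 to 1.12). ENO2 took 68.5% (67.9 to 69.1) of enolase reads in anestrus and 61.1% (60.5 to 61.7) in estrus. In the pituitary ENO2 took 61.4% in anestrus and 55.8% in estrus.

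The genes with the lowest log2 folds of the hypothalamus were ENO3 and several genes outside the main chain. ENO3 gave 52 and 105 reads in the anestrous and estrous hypothalamus, 1.96-fold lower (1.39 to 2.78), within 2-fold, and it passed the 2-fold rule with library totals made equal. ALDH7A1 gave 1479 and 2545 reads, 1.67-fold lower (1.56 to 1.78), and ALDH2 gave 1514 and 2281 reads, 1.46-fold lower (1.37 to 1.56). FBP1 gave 150 and 222 reads, 1.43-fold lower (1.16 to 1.78). LDHA gave 648 and 876 reads, 1.31-fold lower (1.18 to 1.45), on the other side of 1 from the ovary, while LDHB was 1.15-fold higher (1.12 to 1.18). GALM, which interconverts the anomers of galactose and glucose, gave 1406 and 1989 reads, 1.37-fold lower (1.28 to 1.47). PGAM2 had the highest log2 fold, 0.63, with 150 and 100 reads in the anestrous and estrous hypothalamus.

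Each subunit gene of the pyruvate dehydrogenase complex had a ratio above 1 in the hypothalamus. PDHA1 gave 4021 and 3195 reads in the anestrous and estrous hypothalamus, 1.30-fold higher (1.24 to 1.36). DLD was 1.23-fold higher (1.17 to 1.30) and DLAT 1.21-fold higher (1.13 to 1.28), and PDHB and PDHX were the lowest at log2 folds of 0.15 and 0.15. In the lists around the pathway, 1 hypothalamus gene was 2-fold higher and 1 lower of 44 over the floor, beside the background of 1.99% and 2.61%. PDP1, a phosphatase that activates pyruvate dehydrogenase, was 2.26-fold higher (1.95 to 2.61). SLC16A7, a carrier of pyruvate and lactate, had 7 and 27 reads and was at a ratio of 0.268 (0.0984 to 0.630). All 8 citrate cycle genes lay above 0, at a median of 0.31 (background 49.8% above 0). In the pituitary all 8 lay above 0 too, at a median of 0.19 (background 49.7%).

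Neural cell markers also differed between the hypothalamus libraries. All 5 neuron markers lay above 0, with a summed normalised count of 70047 in the anestrous and 49316 in the estrous hypothalamus. The astrocyte markers summed to 188825 in anestrus and 258608 in estrus, with 3 of 4 below 0. The oligodendrocyte marker MAG gave 4193 reads in anestrus and 5384 in estrus, with a log2 fold of -0.31. None of these neural markers was 2-fold different. Over all cell type lists 3 of 63 hypothalamus markers were at least 2-fold higher, CSF1R (1330 and 421 reads in anestrus and estrus), CYP19A1 and S100A12, and 4 were lower, CD2, CD8A, TTR and POMC. By the same rule 1.99% of all hypothalamus genes were higher and 2.61% lower. POMC, a hormone gene of pituitary cells and of some hypothalamic neurons, gave 744 reads in the anestrous and 4697 in the estrous hypothalamus, and TTR gave 856 and 2299. The markers' part in the log2 folds of the pathway genes was not tested.

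Across tissues, 11 of the 40 genes over the floor everywhere had log2 folds above 0 in all 3 tissues. HK1, PFKL, PFKP, GPI, PGAM2, PKM, ADPGK, ACSS1, ACSS2, ALDH1B1 and ALDH3A2 made up this group. With library totals made equal 6 remained, ACSS1, GPI, HK1, PFKL, PGAM2 and PKM. ALDH7A1 was below 0 in all 3, with log2 folds of -0.74 in hypothalamus, -0.59 in pituitary and -0.16 in ovary. ADH5, ENO3, FBP1 and GALM joined it with totals made equal. The share of all genes that lay on one side of 0 in all 3 tissues was not computed, so these counts have no background. In each tissue alone, 50.4% of all ovary genes, 49.7% of all pituitary genes and 49.8% of all hypothalamus genes lay above 0. The levels of some forms differed by tissue more than by state, given here as reads per 1000000 from tables normalised separately. ALDOC stood at 2204 and 1952 reads per 1000000 in the anestrous and estrous hypothalamus, at 105 and 130 in the pituitary and at 31.8 and 29.5 in the ovary. FBP2 was listed at 0 in both pituitary libraries, had 1 and 3 reads in the hypothalamus and was over the floor in the ovary. LDHA took 5.77% and 6.72% of lactate dehydrogenase reads in the anestrous and estrous pituitary, and 5.58% and 8.18% in the hypothalamus, below both ovary libraries.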

How the data were processed

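RNA of 3 tissues was sequenced in 6 libraries, 1 per tissue and state, made with an Illumina TruSeq RNA kit per the labels' protocols. TopHat2 2.1.0 was among the tools, per the submitters' processing notes, and the labels name DESeq. The read counter, genome build, annotation release and use of strand are not given in the sources used here. Overlapping or antisense genes and near-identical copies are therefore uncertain. Each deposited table holds a signal per gene and library, a base mean per the file headers, which by its values is reads over a size factor of the library. The tables also hold the authors' raw p-value and its adjusted form for the 2 libraries of a tissue. Whole reads were recovered by dividing each column by its smallest value, and 100% of values came out within 0.01 of a whole read.

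Members were taken by their pathway entry, with a floor of 10 on the mean, a pseudocount of 1 and a 2-fold rule. The members and gene lists were chosen with earlier results of these data known. Described in full were HK2 and LDHA in ovary, the 10 members per tissue with the largest log2 fold among those with a mean of at least 50, and the members of the 10 glycolytic steps. Shares and folds have exact binomial 95% intervals, which cover counting error only, since each tissue and state has 1 library. PCR copies of a molecule cannot be told apart without molecular identifiers, so the intervals may be too narrow even for counting error. With 1 library per group no test of the states was made within a tissue. As an alternative chosen after seeing the data, edgeR 4.0.16 (R 4.3.3) was run on the recovered reads with tissue as a block, which compares the states across tissues and treats tissues as replicates. Other steps used Python 3.11.15, pandas 2.3.3, numpy 2.4.6, scipy 1.17.1 and matplotlib 3.10.9. Gene neighbours came from RefSeq on Sscrofa11.1, which found 47 of the 48 members. Some genes counted in the totals are not reported here by name. No sequence or coordinate is given, as none was used here.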

Additional observations from a re-analysis of the deposited data

Results flagged for a closer look

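LDHA had log2 folds of 2.66 in the ovary and -0.39 in the hypothalamus, a difference of 3.05, so that its anestrous count was higher in one tissue and lower in the other. Against the pituitary, where LDHA had a log2 fold of -0.32, the difference was 2.98. PCK2 had log2 folds of 1.10 in the ovary and -0.19 in the pituitary, a difference of 1.28. They are given because the gene was at least 2-fold different in the ovary, had the opposite direction in the other tissue, and had a counting interval there that leaves out equal levels. The differences were not tested, since each tissue and state has 1 library.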

How the results depend on the processing

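Of 75 alternative values 66 stayed close to the reported one, and 9 moved. Of the 9, 2 changed sign, the pituitary and ovary medians given below. Close allows some change, so that the ovary counts of 7 higher and 4 lower under equal library totals, for 10 and 3, are among the 66. Some of the 66 could not move. All 48 members have a symbol, so leaving out members without one removes none. A count of 0 cannot change under a higher floor or an added limit on p. Library totals made equal shift every log2 fold by -0.09 in the hypothalamus, -0.12 in the pituitary and -0.20 in the ovary. Under them 1 hypothalamus gene was 2-fold lower (ENO3), the median log2 fold was -0.0715 in the pituitary and -0.0487 in the ovary, and LDHA in the ovary had a log2 fold of 2.46. With no floor 2 pituitary genes were 2-fold higher, HK2 and PCK1. With a floor of 200 the ovary median was 0.40 and 0 ovary genes were 2-fold lower, since the 3 lower genes have fewer reads. Counting only genes that also had an adjusted p of at most 0.05 in the authors' deposited table left 2 higher and 0 lower in the ovary. A floor of 50 left 2 ovary genes lower, without HKDC1, and a trimmed mean of log ratios and a pseudocount of 5 kept the counts of calls in the 3 tissues. edgeR's count test, with tissue as the block, called 0 of 42 pathway genes and 0 of 14444 genes at an adjusted p of at most 0.05, and 3 (FBP2, ALDH7A1 and GPI) and 542 at an unadjusted p of at most 0.05. It fits 1 state difference shared by the 3 tissues, so it cannot decide on a difference found in the ovary only. No paired analysis was possible because the labels pair no animals and each tissue and state has 1 library, so that only tissue could serve as a block. Genes with few reads, such as HKDC1 and PGAM2 in the ovary, have wide counting intervals.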

Other observations

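The pathway entry HIF-1 signaling, a pathway of the response to low oxygen, was looked at after the values were seen. In the ovary 3 of the 9 glycolysis genes that also carry it were at least 2-fold higher, HK1, HK2 and HK3, and 2 were lower, ENO3 and HKDC1. Of the 33 glycolysis genes without it 7 were higher and 1 was lower, beside 13.6% higher and 10.7% lower over all ovary genes. Among 61 other ovary genes with the entry 13 were higher and 3 lower. The 13 were EDN1, EGLN3, EIF4EBP1, ICA, IL6R, PDK1, PFKFB3, PIK3R5, PRKCA, PRKCB, TFRC, TIMP1 and TLR4. GAPDH had ratios of 1.08 in the pituitary and 1.22 in the hypothalamus, anestrous over estrous.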
